A study of Mus musculus with 2 samples.

Results

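Potassium channels with a single pore loop per subunit and no voltage sensor (inward rectifiers, Kir, genes named Kcnj) and those with a pair of pore loops (two-pore-domain channels, K2P, genes named Kcnk) are described here in the left cerebral cortex of young mice. The set holds every annotated gene whose symbol is Kcnj or Kcnk followed by a number and that has at least 1 transcript of class protein_coding. It has 29 members, 15 Kcnj and 14 Kcnk genes, of 55536 annotated genes and of 22028 protein-coding genes. Membership rests on the symbol alone and used no measured value.

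Total RNA was sequenced from 2 male B6CASTF1/J mice aged 10 days, F1 hybrids of C57BL/6J and CAST/EiJ supplied by The Jackson Laboratory, with 300 ng of RNA and ERCC spike-in RNAs in each library. They formed 1 group without treatment, with 1 library per animal, called replicate 1 and replicate 2 after the labels. No second group belongs to the design, so nothing was tested and p-values are absent. Each animal has its own number in the labels, yet a single donor identifier covers both, so the spread between the libraries is that of these samples alone and may be in part technical. Reads of both parental alleles were counted together on a reference of the C57BL/6J strain, and values of whole tissue cannot tell fewer cells of a type apart from less RNA per cell.

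Kir channels pass potassium more easily into the cell than out of it and hold the membrane near the potassium equilibrium potential. Some are opened by G protein beta-gamma subunits (Kir3), some are closed by ATP (Kir6), and Kir4.1 of astrocytes takes up potassium released by active neurons. K2P channels carry the background leak that sets the resting potential, and they respond to acid, membrane stretch, volatile anaesthetics and Gq-coupled receptors. A Kir channel is a tetramer and a K2P channel a dimer, so that each assembled pore is lined by the same number of pore loops.

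The sequence that makes these proteins potassium channels is the selectivity filter, a short run of residues in each pore loop built around a glycine, an aromatic or aliphatic residue and a second glycine. It is shown first because the transcripts described further on differ in whether they encode it. Each line is 39 coding bases of GENCODE M21 on mm10, 5′ to 3′, and the 9 capital bases are the 3 codons of that glycine, middle residue and glycine.
Kcnj11-205: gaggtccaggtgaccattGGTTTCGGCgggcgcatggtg
Kcnj13-201: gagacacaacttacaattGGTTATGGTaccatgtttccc
Kcnk2-202 pore 1: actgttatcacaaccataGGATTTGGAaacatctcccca
Kcnk2-202 pore 2: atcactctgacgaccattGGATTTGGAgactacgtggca
Kcnk9-201 pore 1: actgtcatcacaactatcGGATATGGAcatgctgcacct
Kcnk9-201 pore 2: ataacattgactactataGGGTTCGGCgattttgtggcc
Kcnk1-201 pore 1: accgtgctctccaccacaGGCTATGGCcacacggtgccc
Kcnk1-201 pore 2: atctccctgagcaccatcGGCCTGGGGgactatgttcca

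The Kir sequences each lie in 1 coding exon. That of Kcnj11 is at chr7:46099484-46099522 (minus strand, exon 1) and that of Kcnj13 is at chr1:87389009-87389047 (minus strand, exon 2). The pore 2 sequences of Kcnk2 (chr1:189256569-189256607, minus strand, exon 6), Kcnk9 (chr15:72512707-72512745, minus strand, exon 2) and Kcnk1 (chr8:126025317-126025355, plus strand, exon 2) also lie in 1 exon. The pore 1 sequences are spliced. In Kcnk2 the first 19 bases come from exon 4 (chr1:189295594-189295612) and the rest from exon 5 (chr1:189258879-189258898), in Kcnk9 from exon 1 (chr15:72545997-72546015) and exon 2 (chr15:72513025-72513044), and in Kcnk1 from exon 1 (chr8:125995796-125995814) and exon 2 (chr8:126025012-126025031).

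A search of the annotated coding sequences for this signature (threonine or serine, any residue, glycine, then tyrosine, phenylalanine or leucine, then glycine) found it 1 time in each of the 15 Kir members and 2 times in each of the 14 K2P members. The pattern is not specific by itself, since 5.52% of the 21901 protein-coding genes searched hold it at least once. In Kir members the middle residue was tyrosine in 13 genes and phenylalanine in 2, both of them the ATP-sensitive Kcnj8 and Kcnj11. In K2P members the first pore had tyrosine in 11 genes and phenylalanine in 3, and the second had phenylalanine in 11 and leucine in 3, the TWIK genes Kcnk1, Kcnk6 and Kcnk7. An intron split the first pore signature in 14 of 14 K2P genes, the second in 0 of 14 and the signature of Kir genes in 0 of 15. These are properties of the annotation, not measurements of the libraries.

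Levels are given as TPM (an abundance relative to the library's total and corrected for transcript length, so that genes can be compared with each other), as deposited by the authors, with the mean ± SD of both libraries (n = 2 throughout). Detection meant that each library reached at least 1 TPM. By that rule 19 of the 29 members were detected, 10 Kir and 9 K2P, or 65.5% of the set, beside 59.6% of all protein-coding genes. The median member stood at 3.85 ± 0.035 TPM and the median protein-coding gene at 3.96 ± 0.15. Voltage-gated channels of the Kv1 to Kv4 subfamilies (Kcna, Kcnb, Kcnc and Kcnd genes) passed the rule in 15 of 17 genes, their median being 18.1 ± 0.79 TPM, and KCNQ genes in 4 of 5, with 35.4 ± 1.40. The summed TPM was 218.9 ± 4.67 for Kir members and 147.8 ± 0.43 for K2P members, beside 325.3 ± 2.77 for Kv1 to Kv4 genes.

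Depth was 31254528 expected counts in replicate 1 against 30218308 in replicate 2, of which the members took 881.5 and 877.7 CPM. Markers of glutamatergic neurons (4 of 4), interneurons (4 of 4) and astrocytes (7 of 7) were detected in both libraries, beside 59.6% of all protein-coding genes. Striatal markers (5 of 5) passed as well. The lists were chosen with earlier results of these data known, so their detection cannot serve as a check of the tissue. The same holds for their direction between the libraries. Markers of endothelial cells, mural cells, microglia, oligodendrocyte precursors and meningeal fibroblasts were also all detected. Choroid plexus markers were higher in replicate 2, as were, by less, 4 of 4 oligodendrocyte precursor and 3 of 4 fibroblast markers. So were 8637 of the 14068 protein-coding genes with a mean expected count of at least 20. Striatal and myelin markers were lower. These values are given further on.

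**Figure D1:**
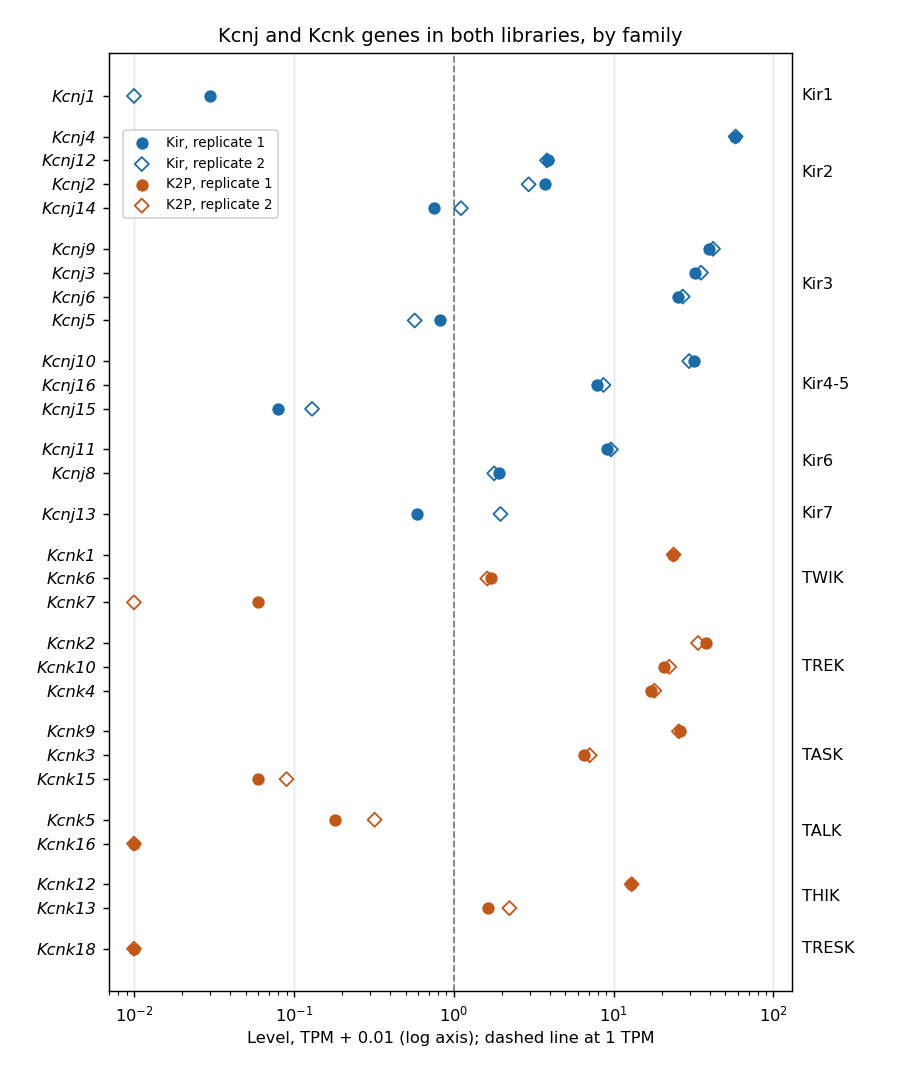
TPM plus 0.01 on a log axis for each of the 29 channel genes, grouped by family, with filled circles for replicate 1 and open diamonds for replicate 2, and a dashed line at 1 TPM. Kcnj4 stands highest near 58 TPM in both libraries, 19 genes lie at or above 1 TPM in both, and Kcnk16 and Kcnk18 sit at 0.

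Few members carried most of the RNA. The 10 highest held 85.5 ± 0.43% of the summed TPM of all 29, and Kcnj4 alone held 15.8 ± 0.15%. By family, Kir3 held 27.6 ± 0.95%, TREK 20.4 ± 0.58%, Kir2 18.0 ± 0.26%, Kir4 with Kir5 10.7 ± 0.41%, TASK 8.89 ± 0.049%, TWIK 6.90 ± 0.070%, THIK 4.04 ± 0.088% and Kir6 3.05 ± 0.038%. The remaining families, Kir1, Kir7, TALK and TRESK, each held under 1%.

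The order of levels was Kcnj4, Kcnj9, Kcnk2, Kcnj3, Kcnj10, Kcnj6, Kcnk9, Kcnk1, Kcnk10, Kcnk4, Kcnk12, Kcnj11, Kcnj16, Kcnk3, Kcnj12, Kcnj2, Kcnk13, Kcnj8 and Kcnk6 among the detected members. The values of both libraries overlapped between neighbours for Kcnk2 and Kcnj3, for Kcnj6 and Kcnk9, and for Kcnk13 and Kcnj8, and these pairs have no order. The other neighbouring pairs did not overlap.

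Kir2 channels are the classical strong inward rectifiers that give many neurons their negative resting potential. Kcnj4 (Kir2.3, ENSMUSG00000044216.7, chr15:79483714-79505241) was the most abundant member, at 57.77 TPM in replicate 1 and 57.96 in replicate 2 (57.9 ± 0.13), which placed it at percentile 91.0 of protein-coding genes. Its relatives were far lower in the same libraries. Kcnj12 (Kir2.2) stood at 3.87 and 3.82 TPM, and Kcnj2 (Kir2.1, chr11:111066164-111076821) at 3.69 and 2.93. The ratio of Kcnj4 to Kcnj2 was 15.7 in replicate 1 and 19.8 in replicate 2. Kcnj14 (Kir2.4), known mainly from motor nuclei of the brainstem, lay at 0.74 and 1.10 TPM, below 1 TPM in replicate 1 only.

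Kir3 subunits form the G protein-gated channels through which GABA-B, adenosine, muscarinic, opioid and other Gi/o-coupled receptors hyperpolarise neurons. Kcnj3 (Kir3.1, ENSMUSG00000026824.11, chr2:55435970-55598145), which needs a partner subunit to reach the surface, stood at 32.49 TPM in replicate 1 and 35.21 in replicate 2. Kcnj6 (Kir3.2, ENSMUSG00000043301.16, chr16:94748636-94997701), its main neuronal partner, stood at 25.37 and 27.05. Kcnj9 (Kir3.3, ENSMUSG00000038026.12, chr1:172320501-172329318), a subunit that carries a signal for lysosomal sorting, was the highest of the family at 39.40 and 41.86. By TPM all 3 were slightly higher in replicate 2, but for Kcnj3 the direction turned with the scaling (log2 ratio 0.12 by TPM and -0.02 with TMM or DESeq2 factors). The ratio of Kcnj6 to Kcnj3 was 0.775 ± 0.0089 and that of Kcnj9 to Kcnj3 was 1.20 ± 0.017, so the order Kcnj9, Kcnj3, Kcnj6 was the same in both libraries. Kcnj5 (Kir3.4), the subunit of the heart atrium, lay at 0.81 and 0.56 TPM, far below the others.

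Kcnj6 RNA was divided between a pair of proteins with different ends. Kcnj6-201 encodes 414 residues and Kcnj6-202 encodes 425, the first 414 of which are the same. Kcnj6-201 held 53.2% of the gene's TPM in replicate 1 and 48.4% in replicate 2, and Kcnj6-202 held 41.8% and 46.0%, so both ends were present at similar shares. In the second quantification the shares were 56.2 and 50.8% for Kcnj6-201 and 36.7 and 38.9% for Kcnj6-202. The ends are shown because they decide whether the protein carries the PDZ-binding tail through which the sorting nexin Snx27 is known to bind Kir3 subunits. Each line is the last 30 coding bases including the stop codon, with the last 4 amino acid codons in capitals.
Kcnj6-201: ccggaagaactgacgGAGAGGAATGGGtga
Kcnj6-202: gcaaacctagagaatGAATCCAAAGTAtag
Kcnj9-201: ccacccccagagagtGAGTCCAAGGTGtga
The 4 last residues of Kcnj6-202 (chr16:94762360-94762389, minus strand, exon 4) are the same as those of Kcnj9-201 (chr1:172322863-172322892, minus strand, exon 4), with synonymous codons. Those of Kcnj6-201, whose last 30 bases span 2 exons, differ from both. Snx27 itself stood at 40.11 TPM in replicate 1 and 42.42 in replicate 2.

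The genes upstream of Kir3 were all above 1 TPM. Of 16 receptor genes that act on Kir3 through Gi/o, 16 were detected in both libraries, with a median of 14.2 ± 1.22 TPM. Of all protein-coding genes 59.6% passed that rule. This and the other partner lists below were chosen with earlier results of these data known, so full detection is not a finding about them. The GABA-B subunits Gabbr1 (273.1 ± 4.22) and Gabbr2 (113.7 ± 1.29) were the highest, followed by the adenosine receptor Adora1 (75.5 ± 1.94) and the cannabinoid receptor Cnr1 (55.6 ± 1.00). The opioid receptors were among the lowest, with Oprm1 at 4.31 ± 0.30 TPM and Oprd1 at 3.80 ± 0.28. Oprk1 differed most within the list, at 5.72 TPM in replicate 1 and 3.20 in replicate 2. Drd2, in the same list, stood at 3.90 and 2.92, and it is also 1 of the 5 striatal markers, whose summed level was 109.7 TPM in replicate 1 and 71.7 in replicate 2. The striatal list was also chosen with earlier results known, and the part of striatal cells in the Oprk1 difference was not tested. All 13 G protein and RGS genes of the list were detected. The beta subunits Gnb1 (575.5 ± 2.71) and Gnb2 (475.0 ± 8.70), which open the channel, and the alpha subunit Gnao1 (505.2 ± 10.9) stood far above the channel genes, and Rgs8, which speeds channel closing, was the lowest at 15.86 and 12.69.

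Kir4.1 (Kcnj10) and Kir5.1 (Kcnj16) form the potassium-clearing channels of astrocytes. Kcnj10 (ENSMUSG00000044708.5, chr1:172341210-172374085) stood at 31.96 TPM in replicate 1 and 29.66 in replicate 2, and Kcnj16 (ENSMUSG00000051497.15, chr11:110968033-111027968), which is silent alone and changes the pH sensitivity of Kir4.1, at 7.85 and 8.63. The ratio of Kcnj10 to Kcnj16 was therefore 4.07 in replicate 1 and 3.44 in replicate 2 (3.75 ± 0.45). Kcnj15 (Kir4.2), a kidney and liver channel, lay at 0.07 and 0.12 TPM. All 8 astrocyte partners listed for Kir4.1 were detected, among them the glutamate transporter Slc1a2 at 625.1 ± 0.89 TPM and the water channel Aqp4 at 59.4 ± 1.03.

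Kir6 subunits surround themselves with sulfonylurea receptors to form the ATP-sensitive channels. Kcnj11 (Kir6.2, ENSMUSG00000096146.2, chr7:46093953-46100764), the neuronal and pancreatic subunit, stood at 9.10 TPM in replicate 1 and 9.61 in replicate 2. Its receptor Abcc8, whose gene ends 3758 bases from it on the same strand, stood at 13.43 and 18.69, and the ratio of Kcnj11 to Abcc8 was 0.678 and 0.514. Abcc8 had 911 and 1004 expected counts, a smaller difference than by TPM. In the second quantification the ratio of Kcnj11 to Abcc8 was 0.621 and 0.663, so its direction between the libraries turned. Kcnj8 (Kir6.1, ENSMUSG00000030247.9, chr6:142564837-142571614), a subunit of pericytes and smooth muscle, was lower at 1.91 and 1.78, and its receptor Abcc9 stood at 3.82 and 3.75. The ratio of Kcnj8 to Abcc9 was 0.487 ± 0.018. In both pairs the receptor gene was the higher one in each library, although an assembled channel holds both subunits in equal number. The 6 mural cell markers were all detected, with a summed level of 113.9 TPM in replicate 1 and 120.9 in replicate 2, and their part in the Kcnj8 level was not tested.

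Kir1 and Kir7 are channels of transporting epithelia. Kcnj1 (Kir1.1), the renal outer medullary channel, had 1 expected count in replicate 1 and 0 in replicate 2. Kcnj13 (Kir7.1, ENSMUSG00000079436.3, chr1:87386363-87394729), the channel of choroid plexus and retinal pigment epithelium, stood at 0.58 TPM in replicate 1 and 1.95 in replicate 2. Among members whose expected counts averaged at least 20, it differed most between the libraries.

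TREK channels open with stretch, heat, lipids and volatile anaesthetics. Kcnk2 (TREK-1, ENSMUSG00000037624.15, chr1:189207930-189402273) was the highest K2P member at 38.05 TPM in replicate 1 and 33.71 in replicate 2. Kcnk10 (TREK-2, ENSMUSG00000033854.10, chr12:98429437-98578310) stood at 20.61 and 22.28, and Kcnk4 (TRAAK, ENSMUSG00000024957.9, chr19:6923966-6934515) at 17.07 and 17.96. All 3 were detected, and Kcnk2 was above the other TREK genes in both libraries.

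TASK channels give the acid-sensitive leak that Gq-coupled receptors close. Kcnk9 (TASK-3, ENSMUSG00000036760.7, chr15:72501089-72546340) stood at 25.85 TPM in replicate 1 and 25.58 in replicate 2, and Kcnk3 (TASK-1, chr5:30588170-30625271) at 6.55 and 7.07. The ratio of Kcnk9 to Kcnk3 was 3.95 and 3.62, and in the second quantification 3.65 and 2.23. Kcnk15 (TASK-5), which gives no current alone, had 2 and 3 expected counts. The 8 genes listed for the Gq path were all detected, among them the receptor Grm5 at 99.3 ± 0.18 TPM and the alpha subunit Gnaq at 91.66 and 94.28.

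TWIK channels give weak inward rectification, and Kcnk1 (TWIK-1, ENSMUSG00000033998.9, chr8:125995170-126030685), which is also known from astrocytes, stood at 23.54 TPM in replicate 1 and 23.72 in replicate 2. Kcnk6 (TWIK-2), a channel of vessels and immune cells, was lower at 1.69 and 1.61. Kcnk7, for which no current is known, had 1 expected count in replicate 1 and 0 in replicate 2. In THIK, the halothane-inhibited family, Kcnk12 (THIK-2, chr17:87745801-87797994) stood at 12.85 and 12.96, and Kcnk13 (THIK-1, chr12:99964499-100062682), the main potassium leak of microglia, at 1.63 and 2.22. Among the 5 microglial markers, 2 were higher and 3 lower in replicate 2, and their sum went from 95.5 to 93.8 TPM between the libraries. Kcnk13 had 99 and 121 expected counts, and the 95% interval of its CPM ratio for counting error (0.961 to 1.67) included 1. The part of microglia in the Kcnk13 value was not tested.

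The remaining K2P members were at or near 0. Kcnk5 (TASK-2) of the alkaline-activated TALK family had 11 expected counts in replicate 1 and 20 in replicate 2 (0.17 and 0.31 TPM). Kcnk16 (TALK-1), a channel of pancreatic beta cells, and Kcnk18 (TRESK), a channel of sensory ganglia, had 0 expected counts of 31254528 in replicate 1 and 0 of 30218308 in replicate 2, which allows up to 3 counts in each library. The 10 members not detected lay between 0 and 1.95 TPM in single libraries, and 2 of them were at 0 in both.

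**Figure D2:**
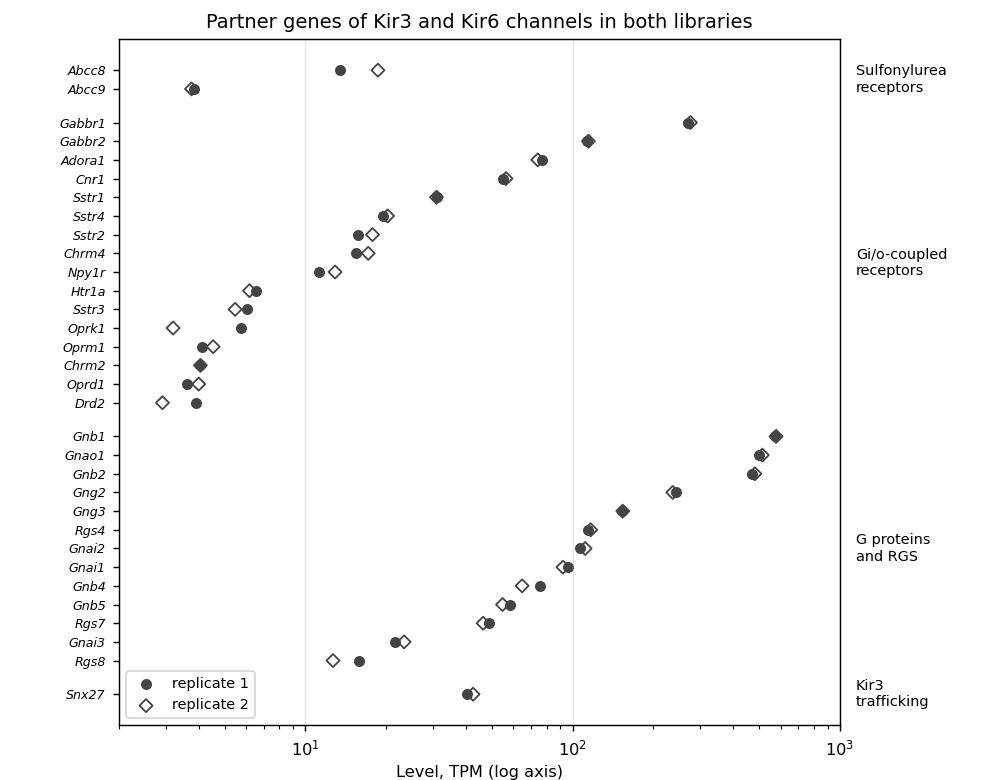
TPM on a log axis for 32 partner genes of Kir3 and Kir6 channels, in 4 lists, with filled circles for replicate 1 and open diamonds for replicate 2. All lie above 1 TPM in both libraries, and Abcc8 and Oprk1 show the widest gaps among those named in the text.

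A TPM value of a gene sums over its transcripts, and not all of them encode the pore. Transcripts whose coding sequence holds the full set of signatures (1 for Kir, 2 for K2P) carried 89.4 ± 0.20% of the summed TPM of the 29 members. The share was 96.3 ± 0.42% in Kir members and 79.1 ± 0.37% in K2P members. These shares are not alike, since a shortened form meets the rule for 1 signature more easily than that for 2. Kcnj3-202, with 235 residues beside 501 in Kcnj3-201, counts as holding the full set. Transcripts of class protein_coding carried 94.5 ± 0.11% of the members' TPM, beside 84.5 ± 0.49% over all protein-coding genes.

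**Figure D3:**
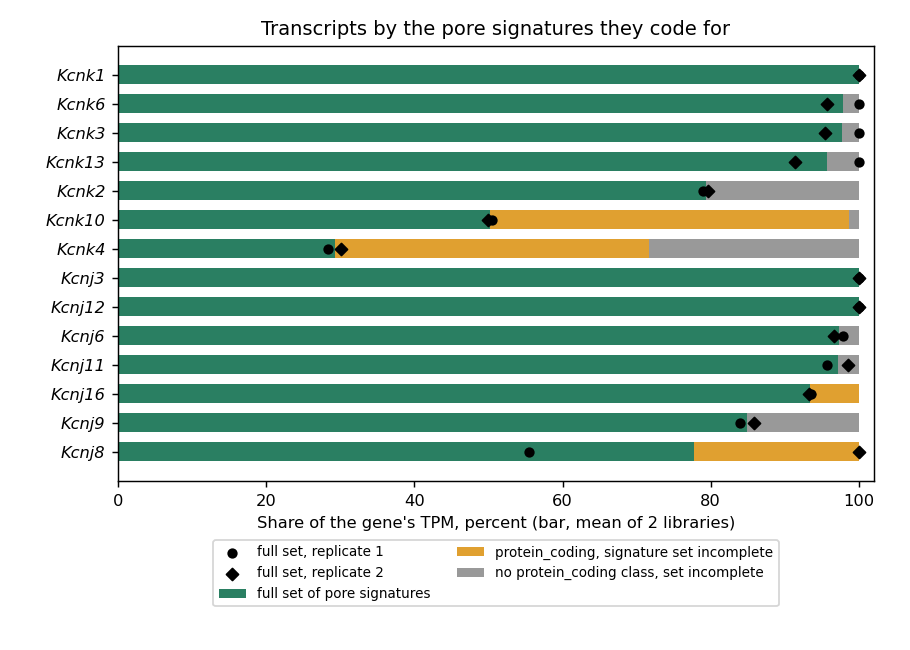
Share of each gene's TPM, in percent, on transcripts that encode the full set of pore signatures (green), on other transcripts of class protein_coding (yellow) and on transcripts of other classes (grey), for the 14 detected members with more than 1 transcript. Bars are means of 2 libraries, and black circles and diamonds give the green share in replicates 1 and 2. Kcnk4 and Kcnk10 have the smallest green shares among K2P genes, near 29 and 50%, and the symbols of Kcnj8 lie far apart.

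Kcnk4 had the smallest share among detected members. Its only transcript with both signatures, Kcnk4-201 (398 residues), held 28.4% of the gene's TPM in replicate 1 and 30.1% in replicate 2, or 4.84 and 5.40 TPM. The highest was Kcnk4-205, at 35.1 and 33.9%, a transcript of 600 bases. Its annotated coding sequence is partial (63 residues) and holds no signature, which does not show what a complete form would encode. In replicate 1 Kcnk4-201 had 165 expected counts and Kcnk4-205 had 61.6, so their order by TPM rests on the length correction. A further 12.6 and 13.7% lay on the non-coding Kcnk4-207. By gene level Kcnk4 ranked 10th among the members, and by the level of transcripts with the full signature set it ranked 14th. Kcnk4 also shares 587 exon bases with Catsperz on the same strand (6.52 and 9.62 TPM), and reads there cannot be assigned to either gene by strand.

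Kcnk10 was split near the middle. Kcnk10-203, which encodes 241 residues and only the first pore signature, held 48.1% in replicate 1 and 48.7% in replicate 2. Kcnk10-202 (535 residues) held 38.8 and 40.8%, and Kcnk10-201 (521 residues) 11.7 and 9.13%. These encode both signatures and share their last 520 residues. Kcnk10-203 is 1357 bases long and Kcnk10-202 is 7460, and the 256 expected counts of the short form in replicate 1 compare with 1208 of the long form. The share by TPM therefore depends on the length correction. In the second quantification the full-length forms held 57.5 and 57.9%.

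In Kcnk2 the full signature set was carried by 79.3 ± 0.52%, spread over 4 transcripts that held 10.0 to 25.7% each. Another 19.0% in replicate 1 and 19.5% in replicate 2 lay on Kcnk2-203, a transcript of class nonsense_mediated_decay with no signature. In Kcnj9 the retained-intron transcript Kcnj9-203 held 16.1 and 14.2%, and the share of full-signature transcripts was 84.9 ± 1.31%. Kcnj8 differed between the libraries: Kcnj8-201, a form of 127 residues with no signature, held 44.4% in replicate 1 and 0% in replicate 2, but with 91 and 86 expected counts for the whole gene the forms are poorly resolved.

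The libraries were then compared gene by gene. Their ratio is on the log2 scale, replicate 2 divided by replicate 1 after adding 0.1 TPM to both. A gene counted as past the fold where this reached 0.5 in either direction and the expected counts averaged at least 20. By that rule 2 of 22 members were past the fold, both higher in replicate 2, beside 4.79% of 14068 protein-coding genes (3.27% higher and 1.52% lower in replicate 2). Both have few counts, and among protein-coding genes with mean counts of 20 to 100 the share was 20.5%. Of the 18 members with a mean count of 100 or more, 0 were past the fold, beside 2.07% of 11995 protein-coding genes, so the count of 0 is near the background.

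Kcnj13 was 1 of the 2, with 14 expected counts in replicate 1 and 45 in replicate 2 and a log2 ratio of 1.59. The ratio of CPM (counts scaled to the library's total) was 3.32, with a 95% exact interval for counting error of 1.79 to 6.56. All 6 choroid plexus markers were also higher in replicate 2, with a summed level of 9.38 TPM in replicate 1 and 314.1 in replicate 2, most of it Ttr (7.35 and 303.5). That list was chosen with earlier results of these data known, so its direction is not an independent result. Kcnj13 also shares 49.1% of its exon bases with Gigyf2 on the opposite strand (34.35 and 36.70 TPM), and no source used here gives the strand setting of the counting. The part of either in the Kcnj13 value was not tested. Kcnj14 was the other, with 39 and 56 expected counts and a log2 ratio of 0.51. Its ratio of CPM was 1.49 with an interval of 0.969 to 2.30, so the difference was not detectable at this depth.

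The next differences stayed inside the fold. Kcnj5 had a log2 ratio of -0.46 from 72 and 47 counts, with a CPM ratio of 0.675 (0.457 to 0.989). Kcnk13 had one of 0.42 from 99 and 121, with a CPM ratio of 1.26 (0.961 to 1.67). Kcnj2 had a log2 ratio of -0.32 from 405 and 309 counts, and its ratio of 0.789 (0.678 to 0.917) lay below 1 beyond counting error. The interval also excluded 1 for Kcnk2 (0.896, 0.840 to 0.955), Kcnj10 (0.921, 0.877 to 0.967), Kcnj9 (1.06, 1.01 to 1.12) and Kcnk10 (1.10, 1.03 to 1.18), which are small differences at high counts. The share of all protein-coding genes with such an interval was not computed, so the members cannot be set against it. These intervals use library totals without TMM or DESeq2 factors. For Kcnj9 the lower bound is 1.006, and the log2 ratio was 0.087 by TPM and 0.061 with TMM. Its exclusion of 1 may therefore depend on the scaling. Markers of striatal neurons were 5 of 5 lower in replicate 2 (summed 109.7 and 71.7 TPM), and those of myelinating oligodendrocytes 5 of 5 lower (328.3 and 284.4). Other sets went the other way. Oligodendrocyte precursor markers were 4 of 4 higher (343.1 and 359.3), and fibroblast markers 3 of 4 higher (71.7 and 85.2). Among 14068 protein-coding genes with a mean count of at least 20, 8637 were higher and 5360 lower in replicate 2. Their median log2 ratio was 0.040. Of the precursor markers, Pdgfra, Olig1 and Olig2 had intervals of the CPM ratio that included 1, and Cspg5 (1.01 to 1.07) did not. Astrocyte markers were 5 higher and 2 lower (1143.8 and 1187.7). Endothelial markers were 4 higher and 1 lower, and mural markers 4 and 2. Glutamatergic neuron markers were 2 higher and 2 lower, interneuron markers 1 and 3, and microglial markers 2 and 3. All lists were chosen with earlier results of these data known, so these directions are not independent results. The part of any of these cell types in the ratio of Kcnj2, Kcnj10 or Kcnk2 (log2 ratio -0.17) was not tested.

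**Figure D4:**
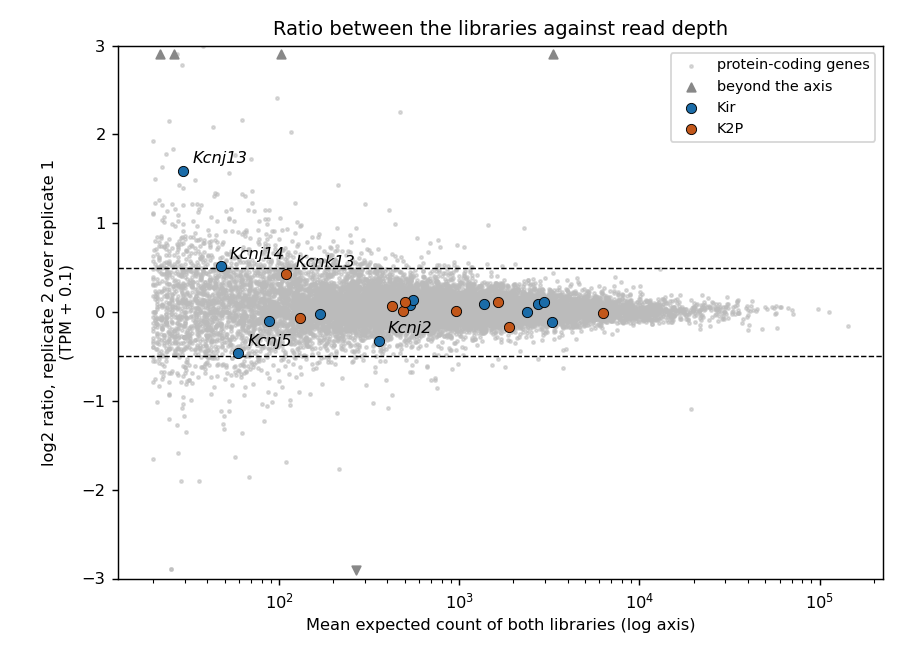
log2 ratio of replicate 2 over replicate 1 (TPM plus 0.1) against the mean expected count on a log axis, for protein-coding genes (grey) and the 22 members with a mean count of 20 or more (blue Kir, orange K2P). Dashed lines mark 0.5 in both directions, triangles mark genes beyond the axis, and Kcnj13 at 1.59 and Kcnj14 at 0.51 are the members outside the lines.

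The order of the channels was similar in the 2 deposited quantifications. Levels in the second were higher for all 19 detected members, with a median ratio of 1.44 beside 1.53 over detected protein-coding genes. No detected member changed its rank by more than 2, and the first 10 were the same 10 genes. The ratio ran from 1.24 (Kcnk12) to 1.92 (Kcnk6). Kcnj11 and Kcnk3 stood out by the gap between their libraries in the second quantification. Kcnj11 went from 12.2 TPM in replicate 1 to 19.1 in replicate 2, and Kcnk3 from 9.36 to 15.2. For Kcnk3 the long coding form Kcnk3-201 was at 9.36 in both libraries, and the rest was the short non-coding Kcnk3-202, at 0 in replicate 1 and 5.82 in replicate 2.

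**Figure D5:**
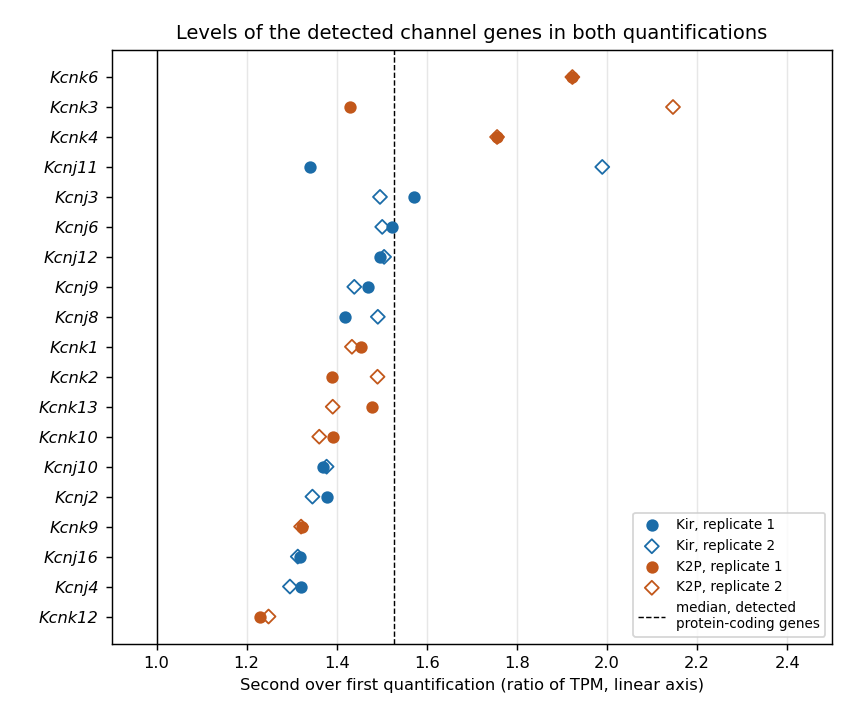
Ratio of TPM in the second quantification to TPM in the first, on a linear axis, for the 19 detected members, with filled circles for replicate 1, open diamonds for replicate 2, a solid line at 1 and a dashed line at the median of detected protein-coding genes, 1.53. All points lie above 1, and the libraries separate most for Kcnj11 and Kcnk3.

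Of the 14 detected members with several transcripts, 11 had the same highest transcript in both quantifications (76.1% over 11837 protein-coding genes). The exceptions were Kcnj16 (Kcnj16-201 and Kcnj16-206, which encode the same protein), Kcnk2 (Kcnk2-201 and Kcnk2-206, with different first residues) and Kcnk10 (Kcnk10-203 and Kcnk10-202). For Kcnk10 the choice between a form with 1 pore signature and a form with 2 as the most abundant one therefore differs between the quantifications. Kcnk4-205, the partial form without a signature, was the highest Kcnk4 transcript in both.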

How the data were processed

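The labels give 2 libraries of 1 group. Per the file headers, the authors deposited gene and transcript tables with expected counts, TPM, the percent of a gene's TPM held by each transcript, and interval bounds (used as signal) around a posterior mean TPM. A second deposited quantification holds estimated counts and TPM per transcript, summed here by gene. Both use mm10 and GENCODE M21, per the deposited descriptions. Program names, versions and strandedness are not given in the sources used. TPM is scaled to a fixed sum with spike-in and mitochondrial records counted in.

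Members were taken by the symbol rule given at the start, which used no measured value. Families and the marker and partner lists were chosen with earlier results of these data known. Members detected or past the fold are given with full values, the others by range and counts. Signatures were searched in translated coding sequences with Biopython 1.88. Exact (Clopper-Pearson) 95% intervals cover counting error only, since the reads carry no molecular identifiers and may repeat a molecule. Alternatives used scaling factors of edgeR 4.0.16 (TMM) and DESeq2 1.42.0, and the script for ratios was tested on simulated data. Protein sequences were not used here.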

Additional observations from a re-analysis of the deposited data

How the results depend on the processing

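No paired analysis was possible because the study has 1 group and makes no comparison between groups. The counts of detected members stayed within 1.5 times of the reported ones under every alternative run: 16 to 22 for all members, 9 to 13 for Kir and 7 to 9 for K2P. Levels depend on the scale. The second quantification gave a median member of 5.77 TPM and sums of 312.7 (Kir) and 214.7 (K2P). TPM rescaled to nuclear protein-coding genes gave 7.92, 451.1 and 304.6, and posterior means gave 3.76 for the median and 146.3 for the K2P sum. The second quantification also moved the protein_coding share to 92.0%, the full-signature share to 87.6% (Kcnk4 21.7%, Kcnk10 57.7%), the ratio of Kcnj6 to Kcnj3 to 0.763 and that of Kcnj9 to Kcnj3 to 1.14. Single levels moved beyond 1 SD for 24 of 29 members in the second quantification, for 25 after rescaling and for 14 as posterior means. Apart from the scale of the units, the cause of these shifts was not tested. The shares with the full signature set were chosen after seeing the data. Past the fold, beside the share of protein-coding genes under the same setting, were 1 member with a pseudocount of 1 TPM (1.93%), 4 with no filter on counts (10.2%), 0 at a mean count of 100 or more (2.07%) and 1 at a log2 ratio of 1 (0.753%). With a pseudocount of 0.01 TPM there were 3 (5.59%), Kcnj5 (-0.52) being added. With TMM (2.69%) or DESeq2 (2.68%) scaling the count stayed at 2, but Kcnj14 fell inside the fold (0.49) and Kcnj5 passed it (-0.51 and -0.52). The second quantification gave 3 (6.12%), Kcnj13 (2.02), Kcnj11 (0.64) and Kcnk3 (0.69). Precision of Kcnj8, Kcnj13, Kcnj14 and Kcnj5, with under 100 counts per library, is limited by depth.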

Other observations

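Several members lie next to each other in the genome. Kcnj9 and Kcnj10 start 11891 bases apart on opposite strands of chromosome 1 and were both high (40.6 ± 1.74 and 30.8 ± 1.63 TPM, n = 2), although one is known from neurons and the other from astrocytes. Kcnj16 and Kcnj2 lie 38195 bases apart on the same strand of chromosome 11, at 8.24 ± 0.55 and 3.31 ± 0.54 TPM. Kcnj6 and Kcnj15 lie 259856 bases apart on chromosome 16 with no protein-coding gene between them, at 26.2 ± 1.19 and 0.095 ± 0.035 TPM. Kcnj5 and Kcnj1, 28142 bases apart on chromosome 9, and Kcnk5 and Kcnk16, 79566 bases apart on chromosome 14, were all below 1 TPM. Kcnj3 shares 31.1% of its exon bases with the long non-coding gene Gm26794 on the opposite strand (1.36 and 1.77 TPM), and Kcnk2 12.2% with A430027H14Rik (1.64 and 2.47 TPM). Kcnk3 shares 5.76% with Gm9899, also on the opposite strand (4.49 and 4.55 TPM). Part of the values of these members may depend on the strand setting, and how much was not tested.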
